A study of Mus musculus with 6 samples.

Results

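Arginine is cleaved, rebuilt and spent by a small set of enzymes, and the RNA of 9 genes of this set was followed in the colon of mice with Hdac1 and Hdac2 deleted in the intestinal epithelium. The genes were Arg1, Arg2, Ass1, Asl, Otc, Cps1, Oat, Odc1 and Glul, out of 18193 genes with a probe set of their own. All probe sets that carry one of these symbols and no other were kept, which gave 15 of the 45037 probe sets tested, and every one of them is reported. Total colon RNA came from 3 control mice, labelled wild type, and 3 HDAC1/2 KO mice. The KO mice carried floxed Hdac1 and Hdac2 genes deleted by a villin-Cre transgene, which acts in intestinal epithelial cells, so that other cells of the colon wall keep both genes. The loss of HDAC2 was incomplete, since the study still saw its protein in part of the crypts and villi by staining. All mice were 4 months old, untreated and on a normal diet, and the sources used here do not say whether the controls carried floxed alleles or the transgene. Affymetrix Mouse Genome 430 2.0 arrays were used, and the deposited values are log2 signals normalized by RMA. Each array was taken as a separate mouse, and whether RNA of several mice was combined was not tested.

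The urea cycle turns ammonia into urea. CPS1 makes carbamoyl phosphate and OTC joins it to ornithine in the mitochondria, ASS1 and ASL then build arginine in the cytosol, and an arginase splits arginine into urea and ornithine. Arginase 1 is the cytosolic form known best from liver and Arginase 2 the mitochondrial form. Ornithine leaves by several routes, through OAT toward glutamate and proline and through ODC1 toward polyamines, which proliferating cells need. Glutamine synthetase, encoded by Glul, makes glutamine, a main fuel of the gut epithelium. In the intestine, OTC and CPS1 are known from small intestinal enterocytes, which make citrulline.

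Both arginase genes were much lower in HDAC1/2 KO colon, Oat was lower and Glul slightly lower, whereas Otc, Asl and Odc1 were higher. Arg2 was 5.92-fold lower and Arg1 3.21-fold lower than in control colon, and Oat was 1.66-fold lower. The arginase signals in KO colon lay in the dimmer part of the scale, where RMA compresses differences, so that both arginase folds may be too small. Otc was 1.69-fold, Asl 1.39-fold and Odc1 1.36-fold higher. Cps1 and Ass1 did not pass the test. Each gene is given here by its brightest probe set on average over the 6 arrays, compared with limma over all probe sets, and passed at a Benjamini-Hochberg adjusted p under 0.05. By this rule 3 of the 9 genes were higher and 4 lower, where 21.9% of all genes were higher, 28.4% lower and 50.4% changed in either direction. The median log2 fold change was -0.02 over the 9 genes and -0.022 over all genes, so the 9 genes did not move one way. The 9 genes were chosen with earlier results of these data known, and no test was made of the set as a whole.

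**Figure D1:**
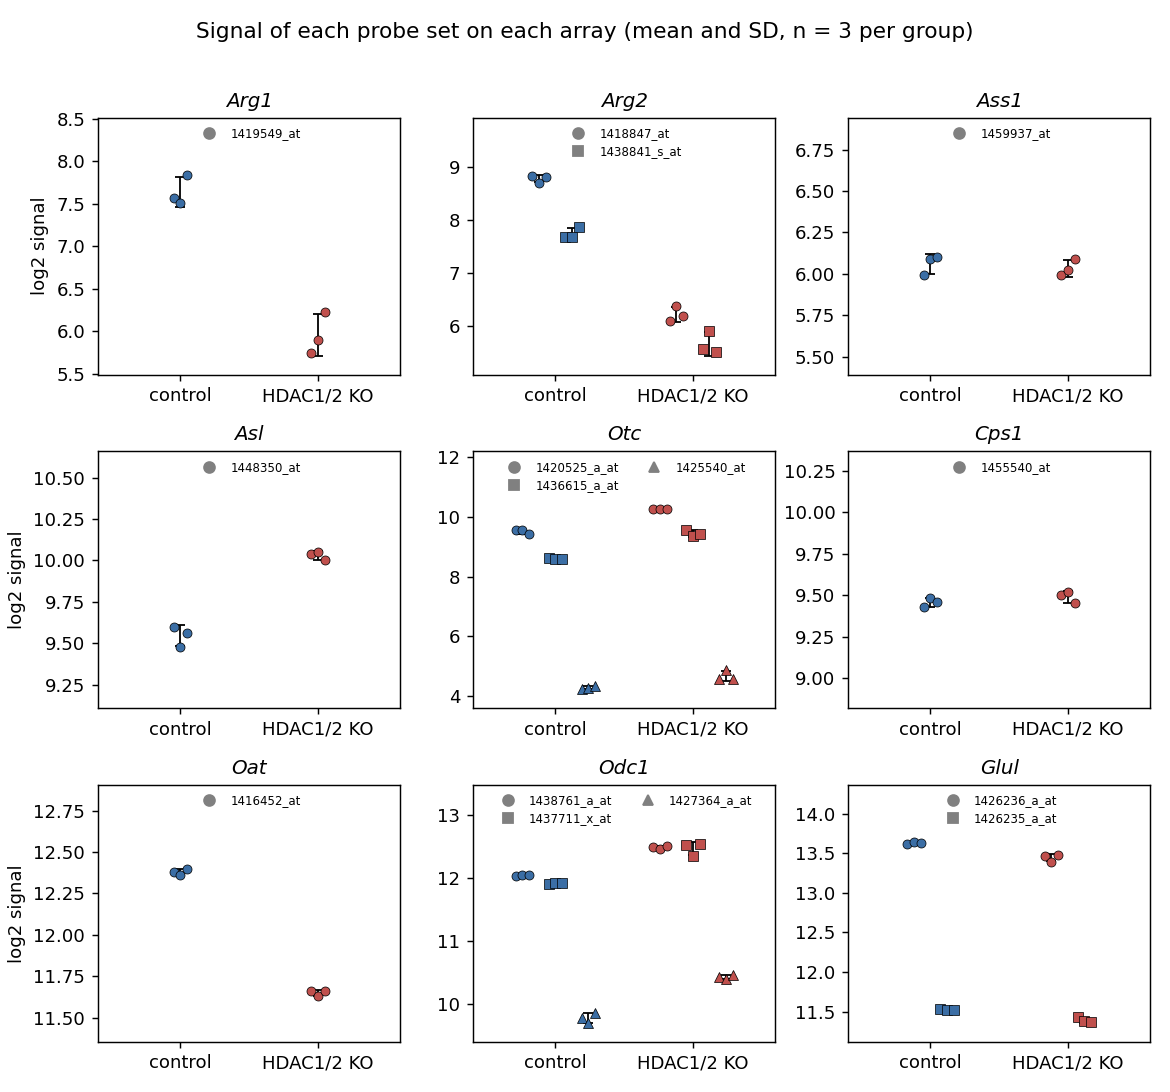
Log2 signal (vertical axis, a separate range in each panel) of every probe set of the 9 genes on the 3 control arrays (blue) and the 3 HDAC1/2 KO arrays (red). Each symbol shape is a probe set, and the black bars run from 1 SD below to 1 SD above the mean. The groups are apart for every probe set except those of Ass1 and Cps1.

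Upstream sequences of 4 of the genes that changed are shown to set the 2 that rose beside the 2 that fell. RefSeq promoter sequences (GRCm38.p6) were held for Glul, Ass1, Oat, Odc1 and Otc, that is for 5 of the 9 genes. Each line gives the 150 bases before the outermost RefSeq start of the gene, 5′ to 3′ on the strand of the gene, with matches to the motifs searched in capitals.
Otc (higher; chrX:10252080-10252229, + strand): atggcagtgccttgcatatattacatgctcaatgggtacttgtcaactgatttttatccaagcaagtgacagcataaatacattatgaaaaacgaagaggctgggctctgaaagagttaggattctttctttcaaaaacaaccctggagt
Odc1 (higher; chr12:17544658-17544807, + strand): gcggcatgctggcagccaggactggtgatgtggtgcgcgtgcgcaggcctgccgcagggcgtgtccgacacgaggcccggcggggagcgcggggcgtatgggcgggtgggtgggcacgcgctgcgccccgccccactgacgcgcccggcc
Oat (lower; chr7:132576399-132576548, - strand): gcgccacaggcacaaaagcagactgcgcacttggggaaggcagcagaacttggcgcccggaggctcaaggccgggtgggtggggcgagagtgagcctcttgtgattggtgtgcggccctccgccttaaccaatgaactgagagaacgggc
Glul (lower; chr1:153899779-153899928, + strand): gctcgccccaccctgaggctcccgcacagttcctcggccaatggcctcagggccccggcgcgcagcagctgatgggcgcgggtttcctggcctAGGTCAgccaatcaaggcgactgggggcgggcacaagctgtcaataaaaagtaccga

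The Otc sequence stood apart in base composition. Over the 300 bases of the RefSeq window, from 250 before to 50 after the start it uses, Otc had 44.3% G and C and 1 CpG, while Odc1 had 78.0% and 42, Oat 61.7% and 22, Glul 64.3% and 17, and Ass1 74.0% and 27. The median over all promoters was 52.7% G and C. In the tables used, the start that sets the window lies 65 bases inside the outermost start of the gene for Odc1 and 75 bases inside it for Otc. Searched on both strands of the 300-base windows were CACGTG (an E-box, in 7.15% of all promoters), TATAAA (the TATA box, 13.6%), TTCNNNGAA (a STAT element, 8.30%), TTGCNNAA (a C/EBP element, 10.8%), CAAAGTCCA (an HNF4 element, 0.475%) and AGGTCA (a nuclear receptor element, 16.3%). Glul held AGGTCA, 57 bases before the start, and Ass1 held CACGTG, 36 bases before it. No other match was found in these 5 windows, which says only that the letters are not there.

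Arg2, the mitochondrial arginase gene, had the largest change of the 9 genes. Its brighter probe set, 1418847_at, read 8.83, 8.70 and 8.81 on the control arrays and 6.09, 6.37 and 6.18 on the HDAC1/2 KO arrays. The lowest control array lay 2.33 log2 units above the highest KO array (log2 fold change -2.56 ± 0.077 SE, adjusted p = 4.44e-07 by limma). Its other probe set, 1438841_s_at, whose name marks shared sequence, read 7.68, 7.67 and 7.87 in control and 5.55, 5.90 and 5.50 in KO colon (log2 fold change -2.09 ± 0.111 SE, adjusted p = 6.37e-06 by limma). In KO colon the mean of the first probe set was brighter than 39.2% and that of the second than 28.9% of all probe sets, against 75.0% and 63.6% in control colon. Both probe sets gave a fall of more than 4-fold, and 0.44% of all genes had a larger absolute change than Arg2. The fall was larger in the first probe set by 0.47 log2 units (standard error 0.089, exact two-sided permutation p = 0.1, the smallest that 3 against 3 arrays can give).

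Arg1, the cytosolic arginase gene, fell as well. Its probe set 1419549_at read 7.57, 7.51 and 7.84 in control colon and 5.75, 5.90 and 6.23 in KO colon, so that the groups lay 1.28 log2 units apart. The spread among arrays was wider than for any other of the 9 genes, with an SD of 0.175 in control and 0.245 in KO colon (log2 fold change -1.68 ± 0.133 SE, adjusted p = 4.28e-05 by limma). The Arg1 mean was brighter than 62.4% of all probe sets in control and 34.4% in KO colon. A larger absolute change was found in 1.24% of all genes. Falls of more than 2-fold were seen in 2 of the 9 genes, both arginases, against 1.82% of all genes, and rises of more than 2-fold in none of the 9, against 2.25%. In whole tissue, fewer cells of a type and less RNA per cell cannot be told apart, for these genes or any other named here.

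**Figure D2:**
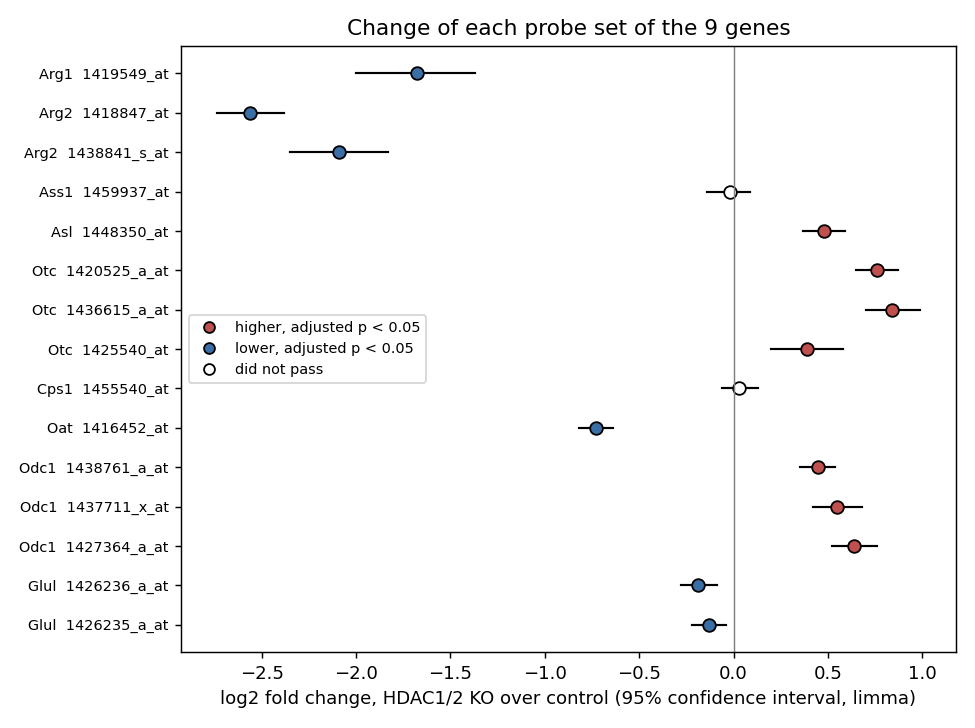
Log2 fold change of each probe set (horizontal axis, HDAC1/2 KO over control, 3 arrays per group) with its 95% confidence interval from limma. Filled points are probe sets with a limma adjusted p under 0.05, and open points are the others. The 3 arginase probe sets lie between -2.56 and -1.68, and all 6 probe sets of Otc and Odc1 lie above 0.

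The genes of arginine synthesis did not change alike. Otc, which makes citrulline, rose on all 3 of its probe sets. The brightest, 1420525_a_at, read 9.54, 9.54 and 9.42 in control and 10.27, 10.27 and 10.25 in KO colon (log2 fold change 0.76 ± 0.0478 SE, adjusted p = 1.44e-05 by limma). A second, 1436615_a_at, read 8.63, 8.58 and 8.57 against 9.56, 9.34 and 9.42, a change of 0.84. The third, 1425540_at, was dim, brighter than only 11.8% of all probe sets, at 4.24, 4.27 and 4.33 in control and 4.58, 4.86 and 4.58 in KO colon (log2 fold change 0.39 ± 0.0813 SE, adjusted p = 0.0062 by limma). No KO array overlapped a control array on any of the 3, and the dim probe set differed from the brightest by 0.37 in its change (exact two-sided permutation p = 0.1). Otc had the largest rise of the 9 genes.

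Asl, the last enzyme of arginine synthesis, was also higher. Its probe set 1448350_at read 9.60, 9.48 and 9.56 in control and 10.04, 10.05 and 10.00 in KO colon, with no overlap (log2 fold change 0.48 ± 0.0466 SE, adjusted p = 1.22e-04 by limma). Cps1, which feeds the cycle with carbamoyl phosphate, read (1455540_at) 9.43, 9.48 and 9.46 in control and 9.50, 9.52 and 9.45 in KO colon. These values overlapped, and the 95% confidence interval of the log2 fold change ran from -0.06 to 0.13 (limma adjusted p = 0.574). Cps1 was no dim gene here, as 81.6% of all probe sets were dimmer. The difference was thus within the spread between arrays, and the interval holds no change beyond 0.13 in either direction.

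Ass1, which joins citrulline to aspartate, could be read on 1 dim probe set only, 1459937_at, brighter than 35.9% of all probe sets. It stood at 5.99, 6.09 and 6.10 in control and 5.99, 6.02 and 6.09 in KO colon, with overlap (log2 fold change -0.02, confidence interval -0.14 to 0.09, limma adjusted p = 0.75). RMA compresses changes near the lower end of the scale, so that this value limits the signal of the probe set and not of the gene. Another probe set carries the symbols Ass1 and Gm5424 together and was left out, since its signal cannot be given to either.

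Of the ornithine-consuming enzymes, Oat fell and Odc1 rose. Oat, which passes ornithine on toward glutamate and proline, read (1416452_at) 12.38, 12.36 and 12.40 in control and 11.66, 11.63 and 11.66 in KO colon. The groups lay 0.70 log2 units apart with an SD of at most 0.0219 (log2 fold change -0.73 ± 0.0391 SE, adjusted p = 6.65e-06 by limma). Odc1, the entry enzyme of polyamine synthesis, was higher on all 3 of its probe sets. The brightest, 1438761_a_at, read 12.03, 12.04 and 12.04 in control and 12.49, 12.45 and 12.50 in KO colon (log2 fold change 0.45 ± 0.0391 SE, adjusted p = 7.24e-05 by limma). The second, 1437711_x_at, read 11.90, 11.92 and 11.92 against 12.52, 12.35 and 12.53, a change of 0.55, and the third, 1427364_a_at, 9.78, 9.70 and 9.86 against 10.42, 10.39 and 10.45, a change of 0.64. All 3 kept the groups apart, by 0.41 to 0.53 log2 units, and the changes of the brightest and the third differed by 0.20 (standard error 0.0486, exact two-sided permutation p = 0.1).

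Glul, the glutamine synthetase gene, had the smallest change that passed. Its brighter probe set, 1426236_a_at, read 13.62, 13.64 and 13.63 in control and 13.46, 13.39 and 13.48 in KO colon (log2 fold change -0.19 ± 0.0425 SE, adjusted p = 0.00993 by limma). The second, 1426235_a_at, read 11.54, 11.52 and 11.52 against 11.43, 11.38 and 11.37 (log2 fold change -0.13 ± 0.04 SE, adjusted p = 0.034 by limma). Neither overlapped between the groups, but the gap was 0.14 and 0.09 log2 units, and 46.9% of all genes had a larger absolute change. With the methods' t-test after Benjamini-Hochberg adjustment the brighter probe set did not pass (adjusted p = 0.0568). In all, the groups did not overlap in 7 of the 9 genes, against 60.9% of all genes, and 13 of the 15 probe sets passed, against 39.8% of all probe sets. Of these, 7 were higher and 6 lower, against 18.8% and 21.0% of all probe sets.

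**Figure D3:**
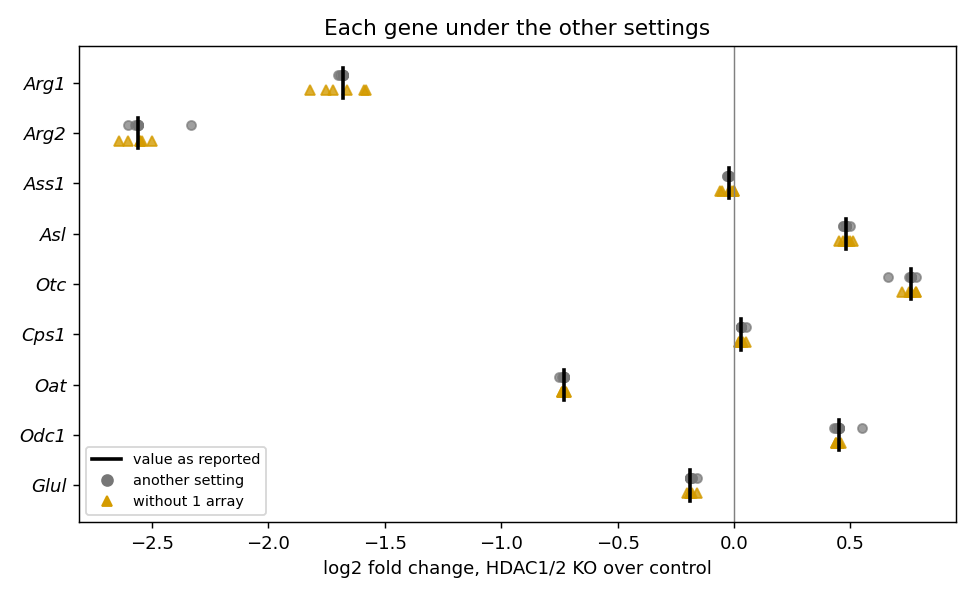
Log2 fold change of each of the 9 genes (horizontal axis, HDAC1/2 KO over control) as reported (black bar), under other settings (grey circles) and without each of the 6 arrays in turn (yellow triangles). Arg2 ranges from -2.64 to -2.33 and Otc from 0.66 to 0.78, and no gene that passed changes sign.

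Around the 9 genes, 16 further transporters and enzymes supply or spend arginine. Of these, 9 rose, 3 fell and 4 did not pass, where 21.9% of all genes rose and 28.4% fell, with a median log2 fold change of 0.19 against -0.022 over all genes. The largest changes were in both subunits of the brush border carrier for cystine and dibasic amino acids. Slc3a1, its heavy chain, rose from 8.24 ± 0.0273 to 11.09 ± 0.0685 (SD, n = 3 each) (log2 fold change 2.85, limma adjusted p = 3.26e-08), and Slc7a9, its light chain, from 7.96 ± 0.142 to 9.48 ± 0.0454 (log2 fold change 1.53, limma adjusted p = 3.94e-06). Ddah1, which degrades methylated arginine that inhibits nitric oxide synthases, rose 2.83-fold, with all 5 of its probe sets higher, and the mitochondrial ornithine carrier gene Slc25a15 rose by 0.65 on the log2 scale. Gatm, which uses arginine for creatine synthesis, fell by 0.68, and the basolateral carrier subunit gene Slc7a7 by 0.64 (limma adjusted p = 1.74e-05). The third to fall, Nos3, the endothelial nitric oxide synthase gene, changed by -0.17. Nos2, the inducible nitric oxide synthase gene that competes with arginases for arginine, was at 6.44 ± 0.105 in control and 6.45 ± 0.25 in KO colon (SD, n = 3 each) and did not pass (limma adjusted p = 0.954), nor did Nos1, Slc7a2 and Slc25a2. Slc7a7, Nos1, Nos2, Nos3, Slc7a2 and Slc25a2 were named after their values were seen.

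Polyamine genes beyond Odc1 went both ways. Of 10 measured, 5 rose, 2 fell and 3 did not pass, beside 21.9% and 28.4% of all genes, and their median log2 fold change was 0.11 beside -0.022. Srm, the spermidine synthase gene next in line after Odc1, rose from 9.35 ± 0.0737 to 10.36 ± 0.0165 (SD, n = 3 each) (log2 fold change 1.01, limma adjusted p = 4.33e-06). Azin1, which encodes an inhibitor of antizyme, rose by 0.27, and Dohh, a hydroxylase that completes the spermidine-derived residue hypusine, by 0.39. Oaz2, an antizyme gene whose product targets ornithine decarboxylase for degradation, fell by 0.43, and so did Sat1, the polyamine acetyltransferase gene, by 0.43 (limma adjusted p = 1.07e-04). The main antizyme gene Oaz1, named after its value was seen, did not pass at 0.08. Amd1, Amd2, Sms and Paox had no probe set with the symbol alone and were not analysed here.

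Genes of glutamine and glutamate handling were split as well. Of 16 measured, 9 rose, 5 fell and 2 did not pass, beside 21.9% and 28.4% of all genes, and their median log2 fold change was 0.25 beside -0.022 over all genes. Slc1a1, the epithelial glutamate transporter gene, fell from 10.44 ± 0.0894 to 8.26 ± 0.0728 (SD, n = 3 each) (log2 fold change -2.18, limma adjusted p = 3.43e-07). The alanine aminotransferase genes moved apart, with Gpt2, the mitochondrial form, lower by 1.28 on the log2 scale (limma adjusted p = 1.25e-05) and Gpt, the cytosolic form, higher by 0.78 (limma adjusted p = 4.52e-06). Asns, which uses glutamine to make asparagine, rose by 0.64, and Got1, the cytosolic aspartate aminotransferase gene, by 0.58. Of 3 measured genes of proline and ornithine metabolism, Aldh18a1, which starts proline and ornithine synthesis from glutamate, rose by 0.62 (limma adjusted p = 2.89e-05), while Prodh (-0.07) and Aldh4a1 (0.08) did not pass.

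**Figure D4:**
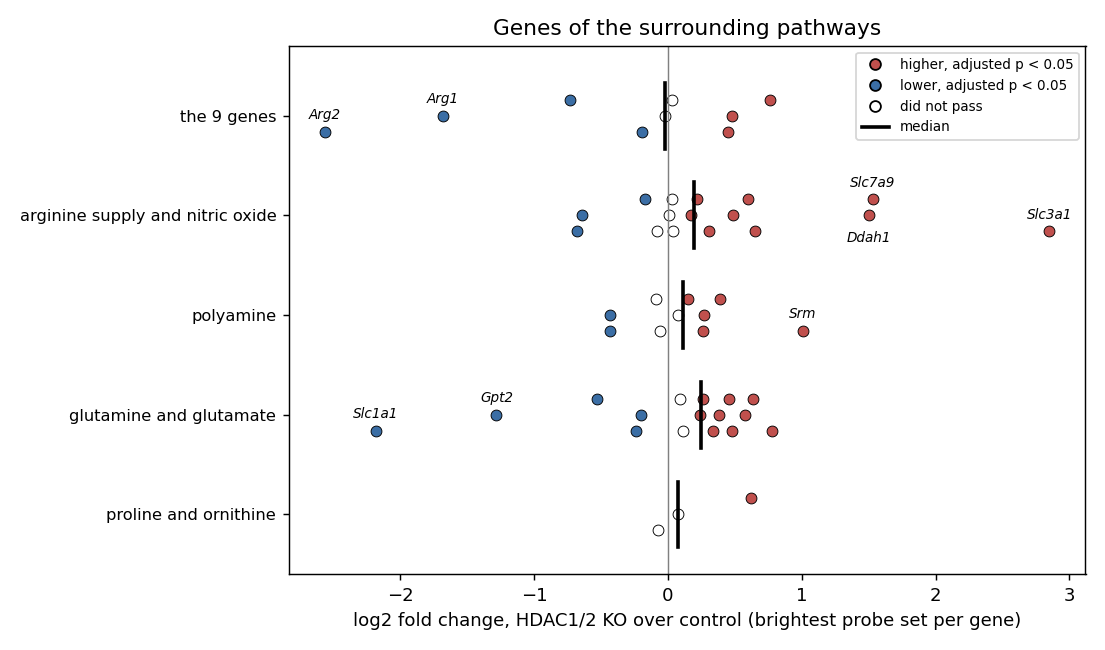
Log2 fold change (horizontal axis, HDAC1/2 KO over control) of the 9 genes and of the genes in 4 surrounding lists, each by its brightest probe set. Coloured points had a limma adjusted p under 0.05 (red higher, blue lower), the others are open, and black bars are medians. Arg2 (-2.56), Slc1a1 (-2.18) and Slc3a1 (2.85) lie farthest from 0.

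The genes closest to Arg2 in their profile fell by about as much. Likeness was measured as the root mean square distance over the 6 arrays between log2 values counted from the control mean, and a short distance means a change of the same size. Ces2a, a carboxylesterase gene, was nearest (distance 0.0873, log2 fold change -2.62), followed by the sulfotransferase gene Sult1c2 (0.0883), the cytochrome P450 genes Cyp2d10 (0.0909) and Cyp2f2 (0.0971) and Gal3st2c (0.113). Nearest to Otc were Bfsp1 (0.018, log2 fold change 0.76), Slc35d1 (0.0249), Wdr4 (0.0286), Tnfrsf1b (0.029) and Dnaaf5 (0.0297). With 2 groups, such a distance mostly reflects the group difference.

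Several cell type marker lists moved with the groups on the same arrays. The Hdac1 signal itself was lower in KO colon, at 9.27 ± 0.0556 against 10.56 ± 0.0351 (SD, n = 3 each), while Hdac2 was not (log2 fold change 0.05, limma adjusted p = 0.475), and whether its probe sets fall in the deleted exons was not analysed here. Colonocyte genes were bright in both groups, and 2 of 5 rose and 1 fell. The labels name the epithelium, but smooth muscle genes were bright too, with Acta2 at 14.23 ± 0.0168 in control colon, and all 5 fell, by log2 fold changes from -0.13 to -0.69. Markers of the small intestinal enterocyte, a cell type known for Otc and Cps1, rose in 4 of 5 cases, and the log2 of their summed signal went from 9.67 to 9.76 in control to 14.00 to 14.03 in KO colon. Markers of the pancreatic acinar cell rose in 6 of 6 cases, from 9.05 to 9.18 to 14.68 to 14.72, and Cpb1 was at 4.94 ± 0.318 in control colon. Those of stratified squamous epithelium, where Arg1 is also known to be made, fell in 6 of 6 cases, by log2 fold changes from -0.17 to -3.19. Their summed signal went from 13.61 to 13.65 to 10.85 to 10.86. It was led by Tgm3, at 13.36 in control and 10.43 in KO colon. Macrophage markers, of a cell type that can express Arg1, rose in 4 of 6 cases, from 11.15 to 11.23 to 12.20 to 12.25, while Arg1 was lower. Neutrophil markers rose in 2 of 5 cases and fell in 1, from 8.39 to 8.48 to 10.67 to 10.71. Markers of the hepatocyte, which has the complete urea cycle, passed in 1 of 5 cases, Tat at 0.32, and Alb was at 7.78 ± 0.0154 in control and 7.81 ± 0.0357 in KO colon (SD, n = 3 each). The pan-epithelial list went from 16.20 to 16.22 to 16.20 to 16.24, with 2 of 5 genes higher and 1 lower. Sex-linked genes differed between the groups as well. Xist, which is made from the inactive X chromosome, had log2 fold changes of -0.83, -1.35 and -1.81 on its 3 probe sets. On the brightest it stood at 12.85 in control and still at 12.02 in KO colon. The Y-linked Eif2s3y rose by 4.25 on its brighter probe set, from 4.09 to 8.34, while its dim one did not pass (limma adjusted p = 0.971). All 3 KO arrays thus carried a bright Xist signal and a Y-linked signal together, and whether RNA of several mice was combined was not tested. The sexes of the mice are not given in the labels, and the sex of a single mouse cannot be read from these genes alone. Eif2s3y read 3.84, 4.31 and 4.11 on the control arrays and 8.32, 8.49 and 8.22 on the KO arrays. Y-linked RNA was thus seen in the KO group only, and the sex make-up of the RNA differed between the groups. A part of sex cannot be told apart from the deletion, also for Otc, which lies on the X chromosome. The part of each of these in the results above was not tested.

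**Figure D5:**
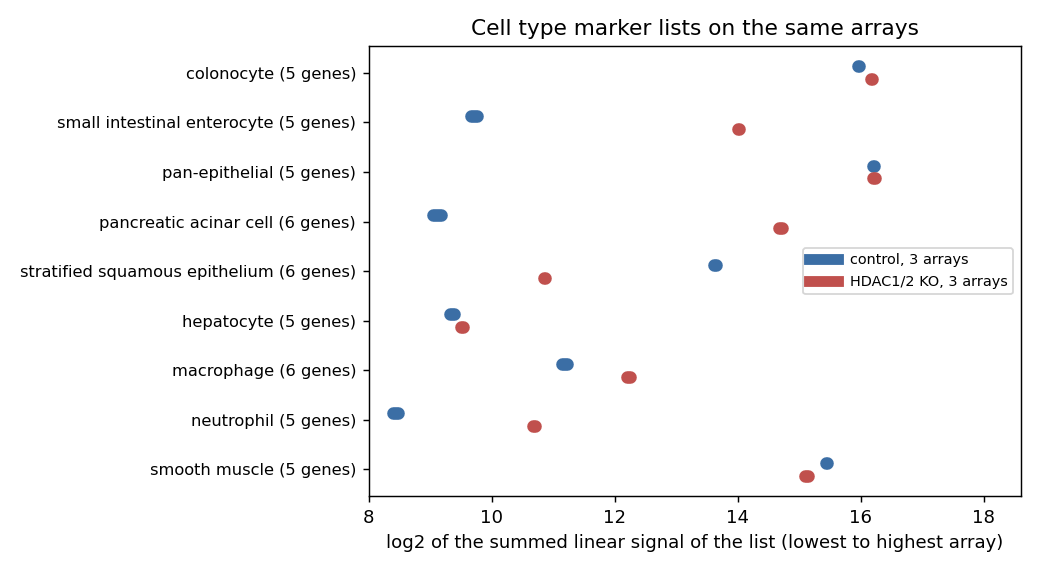
Log2 of the summed linear signal (horizontal axis) of 9 cell type marker lists, drawn as the range from the lowest to the highest of the 3 control arrays (blue) and the 3 HDAC1/2 KO arrays (red). The sum is led by the brightest genes of a list. The pancreatic acinar list rises from at most 9.18 to at least 14.68, and the squamous list falls from at least 13.61 to at most 10.86.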

How the data were processed

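Colon RNA of 3 control and 3 HDAC1/2 KO mice, as the study describes them, was measured on arrays taken as 1 per mouse. The authors deposited a log2 signal for each probe set, background-corrected and normalized by RMA in Flexarray 1.6.1 according to the methods. Sample titles gave the group and the replicate number. Of 45101 rows, 64 control probe sets were left out, and limma 3.58.1 (R 4.3.3, lmFit and eBayes, no covariate) compared KO with control over the other 45037, with Benjamini-Hochberg adjustment across the whole table. Gene symbols came from the platform annotation (34945 with 1 symbol, 932 with several, 9160 with none), and 18193 genes are given by the probe set with the highest mean. The 9 genes, the surrounding lists and the marker lists were chosen with earlier results of these data known. Named were all probe sets of the 9 genes and the 5 largest absolute changes of each surrounding list. Up to 3 genes of each marker list were named by largest absolute change. Further named were the 5 nearest profiles of the genes with the largest change and the largest rise. Hdac1, Hdac2, Xist and Eif2s3y were named as checks of the groups. Acta2 and Alb fall outside this rule, and other genes outside it are said to be so where they are named.

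Alternatives were the methods' t-test without and with Benjamini-Hochberg adjustment, quantile normalization again, median centring, array weights, the replicate number as a block, a filter at the 40th percentile of mean signal, no probe sets of shared sequence, a robust eBayes with a trend, gene values averaged over probe sets, and each array left out in turn. The fit was tested on simulated data. Differences between probe sets of a gene used an exact permutation test (scipy 1.17.1), and figures matplotlib 3.10.9. A planned comparison of the arginase proteins was not made here. Arrays within a group correlated at 0.9984 to 0.9988 over probe sets and those of different groups at 0.9824 to 0.9828. The number of arrays limits the precision, and p-values measure the spread between these arrays as labelled, which may be partly technical. No scan batch is named in the labels.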

Additional observations from a re-analysis of the deposited data

How the results depend on the processing

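Of 238 comparisons of a result with an alternative, 237 kept the direction and the side of the threshold, or a count within 1.5 times. The exception was Glul, whose log2 fold change of -0.19 no longer passed the methods' t-test after Benjamini-Hochberg adjustment (adjusted p = 0.0568), and the cause was not tested. The sample titles give a replicate number and do not say whether mice were paired. Same-numbered control and KO arrays deviated from their group means with correlations of 0.096, 0.064 and -0.026. Arrays of different numbers gave -0.103 to 0.03. With 3 arrays per group these values cannot show whether mice were paired. With the replicate number as a block, 7 of the 9 genes passed, 3 higher and 4 lower, as without it, and 12 of the 15 probe sets in place of 13. Leaving out each array in turn gave 7 of the 9 genes and 12 of the 15 probe sets every time, with log2 fold changes of -1.82 to -1.58 for Arg1, -2.64 to -2.50 for Arg2 and 0.72 to 0.78 for Otc. The filter on dim probe sets left Ass1 out. The median log2 fold change of all probe sets was -0.007, and -0.008 and -0.014 after quantile normalization and centring. Signals in the dimmer part of the scale, those of Ass1, of the dim Otc probe set and of Arg1 and Arg2 in KO colon, limit the size of change that can be read from them.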
